A study of Homo sapiens with 18 samples.

Results

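The genes described here are 35 genes of protein folding, stress sensing and protein degradation in the endoplasmic reticulum (ER), the compartment in which secreted and membrane proteins fold. They were chosen by symbol, and all 35 were found among the 44016 features of the count table. The 35 comprise 10 luminal chaperones and their cochaperones, 6 lectin chaperones and disulfide isomerases, 5 sensors and transcription factors, 12 genes of ER-associated degradation (ERAD) and 2 genes of translocation and vesicle budding. The filter on low counts kept 34 of the 35, and the degradation gene DERL3 did not pass it.

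Poly(A) mRNA was sequenced in 18 libraries of A549, an established human lung adenocarcinoma line, in 6 groups of 3 biological replicates. These were untreated wild type (WT), WT exposed for 2 h to 100 µM hydrogen peroxide (H2O2), an untreated stable S100A16 knockdown (KD), the same KD under that H2O2 treatment, an untreated stable hnRNPM KD and an untreated stable MagoHB KD. S100A16 is a calcium-binding protein, hnRNPM binds nuclear RNA and controls splice site choice, and MagoHB belongs to the exon junction complex that marks spliced mRNA. All controls were plain WT cells, no line with a vector alone is among the groups, and the sources used here do not state how the KDs were made or whether each line is 1 clone. A difference between a KD and WT therefore cannot be told apart from a difference between lines, and p-values measure the spread between these libraries only.

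In the unfolded protein response, 3 sensors in the ER membrane detect misfolded proteins. ERN1 (IRE1) splices the mRNA of the transcription factor XBP1, EIF2AK3 (PERK) slows translation through eIF2α, and ATF6 is cut to release a transcription factor. Their targets include the chaperone HSPA5 (BiP), its partners and ERAD, the route by which misfolded proteins are recognised by EDEM and OS9 proteins, passed through a membrane complex of SEL1L, the ubiquitin ligase SYVN1 (HRD1), HERPUD1 and the derlins, and degraded by the proteasome. Counts per gene do not separate spliced from unspliced XBP1 mRNA.

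Several members carry known promoter elements of this response. The sites are shown because they mark which members hold an exact match to a sequence through which ATF6 and XBP1 are known to act. The ER stress element (ERSE) was searched as CCAAT, 9 bases and CCACG, ERSE-II as ATTGG, 1 base and CCACG, and the core of the unfolded protein response element (UPRE) as TGACGTGG, on both strands. RefSeq promoter windows (GRCh38.p14) of 300 bases, mostly upstream of the start, were found for 31 of the 35 members. Any of the 3 motifs was present in 9 of these 31 (29%) and in 253 of all 27305 promoters of the table (0.927%). ERSE was in 6 members (19.4%) and 0.0806% of all promoters, ERSE-II in 3 members (9.68%) and 0.0549%, and the UPRE core in 1 member (3.23%) and 0.795%. The members were listed as genes of this response and the motifs are its known elements. The higher share among members is therefore not a result of these data. Each site is printed along the gene's own strand with 20 bases on either side, the motif in capitals.
HSPA5, ERSE, chr9:125241371-125241429, minus strand: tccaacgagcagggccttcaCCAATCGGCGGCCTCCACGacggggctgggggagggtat
HSP90B1, distal ERSE, chr12:103930196-103930254, plus strand: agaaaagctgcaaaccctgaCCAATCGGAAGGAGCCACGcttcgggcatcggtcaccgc
HSP90B1, proximal ERSE, chr12:103930301-103930359, plus strand: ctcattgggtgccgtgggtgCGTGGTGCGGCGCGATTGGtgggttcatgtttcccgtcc
CALR, ERSE, chr19:12938364-12938422, plus strand: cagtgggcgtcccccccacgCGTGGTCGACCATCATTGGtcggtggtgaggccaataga
CANX, ERSE, chr5:179698758-179698816, plus strand: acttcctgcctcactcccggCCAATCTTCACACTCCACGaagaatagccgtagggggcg
CRELD2, ERSE, chr22:49918534-49918592, plus strand: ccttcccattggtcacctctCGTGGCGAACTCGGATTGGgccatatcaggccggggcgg
XBP1, ERSE, chr22:28800583-28800641, minus strand: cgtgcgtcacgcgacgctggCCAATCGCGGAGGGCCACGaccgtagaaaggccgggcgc
SDF2L1, ERSE-II, chr22:21642094-21642144, plus strand: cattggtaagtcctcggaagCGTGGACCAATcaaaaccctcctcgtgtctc
HERPUD1, ERSE-II, chr16:56932005-56932055, plus strand: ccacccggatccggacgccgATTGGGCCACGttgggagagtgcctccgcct
HYOU1, distal ERSE-II, chr11:119057360-119057410, minus strand: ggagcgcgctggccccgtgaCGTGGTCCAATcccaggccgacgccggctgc
HYOU1, proximal ERSE-II, chr11:119057254-119057304, minus strand: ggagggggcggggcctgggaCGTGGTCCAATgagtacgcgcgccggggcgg
The sites began from 52 bases (XBP1) to 225 bases (CALR) upstream of the start. The only UPRE core among the members overlaps the distal ERSE-II of HYOU1 and begins 188 bases upstream of the start. A match describes the letters of the window and is not evidence of binding in these cells. Only exact letters in a window of 300 bases were searched, so no match does not show that a gene lacks such an element.

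As a check of the labels, S100A16 mRNA fell from 119 ± 1.8 CPM (read counts relative to a library size scaled by TMM) without treatment in WT to 8.43 ± 0.58 CPM in its KD (SD, n = 3). HNRNPM was 1766 ± 31 CPM in WT and 368 ± 76 CPM in its KD. MAGOHB was 150 ± 5.3 CPM in WT and 52.1 ± 13 CPM in its KD, and it was 66.4 ± 11 CPM in the hnRNPM KD, so those KDs overlapped in MAGOHB. S100A16 was also lower in the MagoHB KD, at 60.6 ± 11 CPM. In the untreated S100A16 KD, MAGOHB was at 65.0% of WT (97.3 ± 2.9 CPM, adjusted p = 0.00122) and HNRNPM at 67.5% (1192 ± 32 CPM, adjusted p = 0.000911). The keratins KRT8 (3040 to 6240 CPM) and KRT18 (1280 to 2430 CPM) were abundant in all 18 libraries, while the lung lineage factor NKX2-1 (at most 0.205 CPM) and the surfactant gene SFTPC (at most 0.136 CPM) were near 0. Of the other listed line markers, KRT7 was at 218 to 847 CPM and NQO1 at 342 to 1720 CPM. AKR1B10 (386 to 3170 CPM) and AKR1C1 (64.7 to 862 CPM) varied widely between libraries. The epithelial marker EPCAM was low, at 2.09 to 6.57 CPM. All 4 leukocyte and all 4 endothelial markers stayed at or below 0.550 CPM, and of 4 fibroblast markers only COL1A1 was above 0.892 CPM (12.3 to 47.7 CPM). Totals ranged from 36612997 to 51406431 counts per library. Replicates 1 of the untreated S100A16 KD, 3 of the hnRNPM KD and 2 of the MagoHB KD stood apart: pairs with 1 of them had a chi-square per degree of freedom of 30.1 to 65.6, and all other replicate pairs 3.09 to 5.6. In bulk samples, fewer cells of a type and less RNA per cell cannot be told apart.

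In untreated WT the members spanned a wide range of levels, compared here between genes by the authors' RPKM values, which divide by exon length. The ER Hsp90 HSP90B1 was highest at 812 ± 7.9 RPKM (SD, n = 3), followed by the lectin CALR at 451 ± 4.2 and HSPA5 at 323 ± 10 RPKM. Most chaperones and isomerases were well above the regulators. The sensors were low, with EIF2AK3 at 6.97 ± 0.34, ATF6 at 3.5 ± 0.15 and ERN1 at 0.528 ± 0.058 RPKM, whereas XBP1 reached 27.6 ± 2.8 RPKM. Among ERAD genes, the lectin OS9 was highest at 85.6 ± 1.7 RPKM, the adaptor SEL1L stood at 15.7 ± 0.58 and the ligase SYVN1 at 5.36 ± 0.097 RPKM. DERL3, the third derlin, had at most 6 counts in a library and was listed at 0 in 8 of 18 libraries. A floor of 3 counts corresponds to 0.0532 to 0.0875 CPM in these libraries, for counting error only. It takes counts as independent, which was not tested, and only 18.6% to 22.0% of low counts were odd. The floor may therefore be too low. The 34 tested members had from 192 counts (ERN1) to 269423 counts (HSP90B1) in a library.

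**Figure D1:**
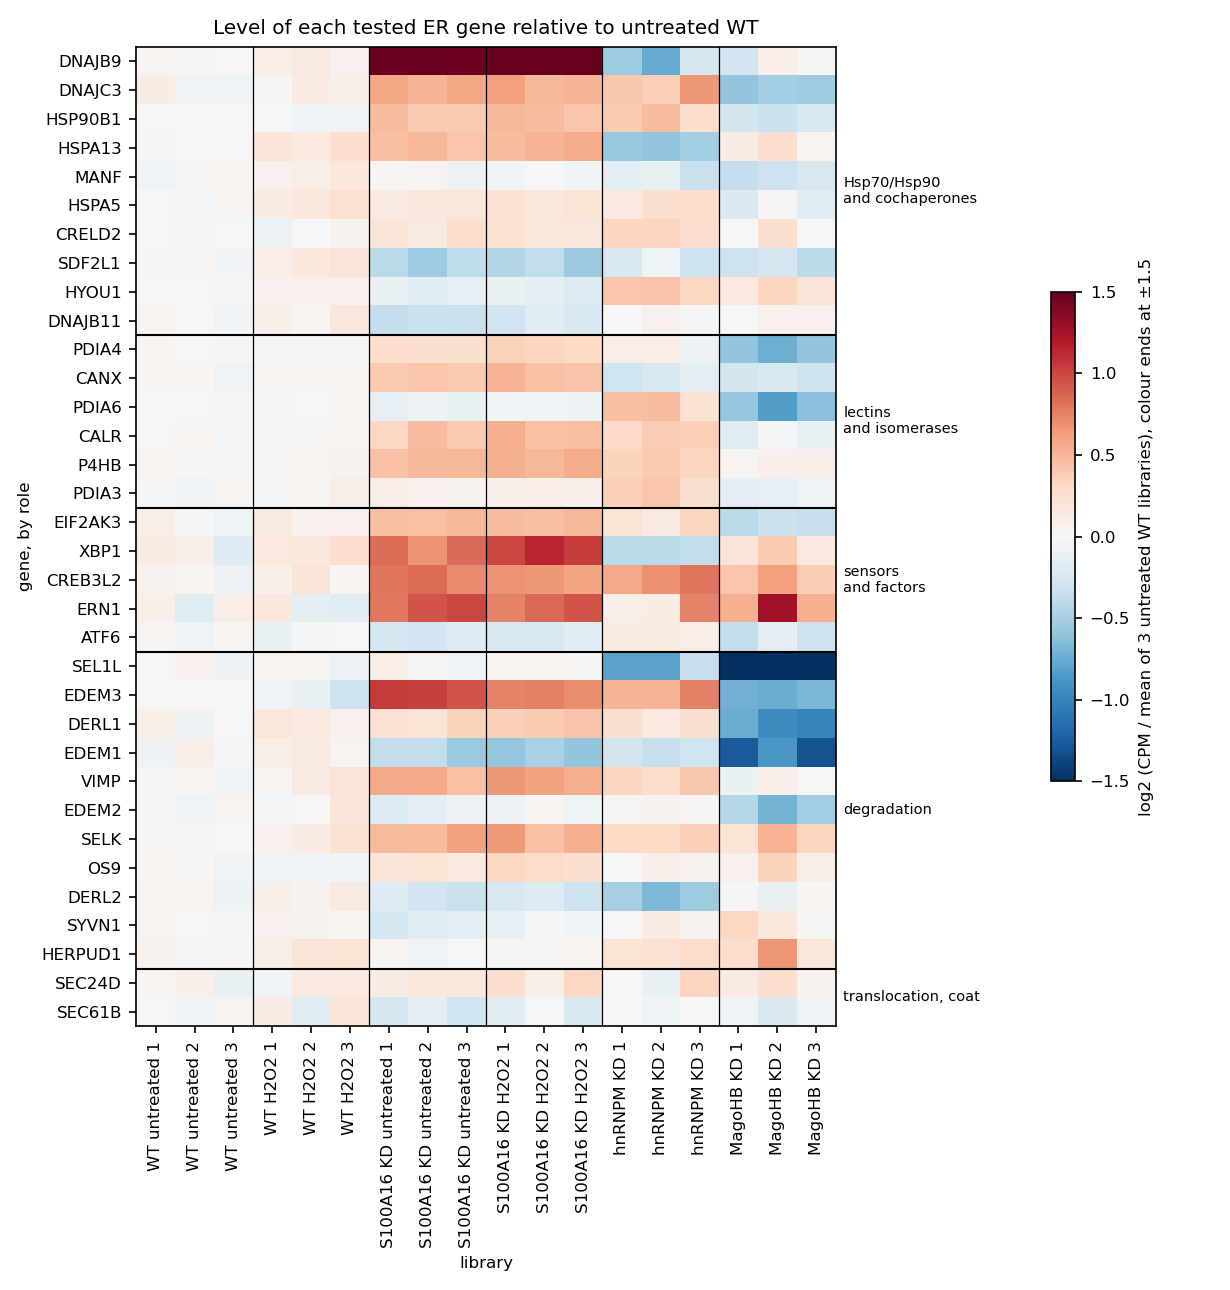
Level of each of the 34 tested ER genes (vertical axis, by role) in each of 18 libraries (horizontal axis), as the log2 ratio of CPM to the mean of the 3 untreated WT libraries, red for higher and blue for lower. DNAJB9 is deep red in all 6 S100A16 KD libraries and SEL1L deep blue in all 3 MagoHB KD libraries, close to or past the ends of the colour scale, while the WT libraries with H2O2 are pale throughout.

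The S100A16 and MagoHB KDs, both untreated, differed across most of the group. Of the 34 tested members 21 were higher and 5 lower in the S100A16 KD than in the MagoHB KD (edgeR quasi-likelihood test, Benjamini-Hochberg adjusted p under 0.05 over all 22382 genes tested). Of all genes tested, 23.2% were called higher and 21.7% lower. The median log2 fold change (S100A16 KD minus MagoHB KD throughout this comparison) was 0.32 over the members and -0.01 over all genes. Without the 3 libraries that stand apart, 24 members were higher and 5 lower. The calls over all genes also rose, from 5182 higher and 4847 lower to 5550 higher and 5449 lower. The libraries of the KDs did not overlap for any of the 26 called members. How often this held over all called genes was not counted, so whether it sets the members apart is not known.

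The largest difference was in ERAD. SEL1L (GRCh38 chromosome 14, 81471549 to 81533861), the adaptor that links the ubiquitin ligase SYVN1 to its substrates, was at 165, 171 and 155 CPM in untreated WT and at 175, 165 and 158 CPM in the S100A16 KD. It was at 35.5, 29.4 and 31.2 CPM in the MagoHB KD and at 93.8, 93.8 and 129 CPM in the hnRNPM KD. The MagoHB KD libraries were thus the lowest of all, the hnRNPM KD libraries lay between, and the S100A16 KD overlapped WT. SEL1L was 5.19-fold higher in the S100A16 KD than in the MagoHB KD (log2 fold change 2.38 ± 0.10 SE, adjusted p = 1.44e-13), and the log2 value ranged from 2.26 to 2.46 over 14 alternatives.

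EDEM3 (chromosome 1, 184690231 to 184754913), which trims mannose from misfolded glycoproteins, was at 32.9, 33.0 and 32.6 CPM in untreated WT. It was at 67.7, 67.0 and 63.2 CPM in the S100A16 KD and at 19.9, 19.6 and 20.4 CPM in the MagoHB KD, so the KDs lay on opposite sides of WT. The difference was 3.30-fold (log2 1.72 ± 0.07, adjusted p = 2.33e-14). Derlin 1 (DERL1), a membrane protein of the ERAD channel, also lay on opposite sides: it was at 31.3, 28.2 and 29.8 CPM in WT, 34.9, 34.3 and 37.4 CPM in the S100A16 KD and 17.8, 15.4 and 14.9 CPM in the MagoHB KD. That was 2.22-fold (log2 1.15 ± 0.07, adjusted p = 7.53e-12). DERL1 exons overlap, among others, those of TBC1D31 on the other strand, which was lower (32.8 against 44.9 CPM, log2 -0.45). The part of TBC1D31 in the DERL1 value was not tested.

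The other ERAD genes did not all move this way. EDEM1 (log2 fold change 0.70 ± 0.09) and EDEM2 (0.41 ± 0.08), relatives of EDEM3, and VIMP (0.53 ± 0.06), a selenoprotein now named SELENOS that recruits the ATPase p97, were higher in the S100A16 KD. HERPUD1, SYVN1 and DERL2 were lower. HERPUD1, a scaffold of the ligase complex, was at 21.7, 20.7 and 20.5 CPM in WT, 21.4, 20.3 and 21.0 CPM in the S100A16 KD and 25.3, 33.1 and 23.7 CPM in the MagoHB KD. The MagoHB KD libraries were above all of these, replicate 2 most of all. HERPUD1 had a log2 fold change of -0.39 ± 0.09 (adjusted p = 0.000916), and without MagoHB KD replicate 2 it was -0.23. SYVN1, the ligase, was at 33.1, 32.1 and 31.5 CPM in WT, 26.8, 28.4 and 29.4 CPM in the S100A16 KD and 40.1, 35.9 and 32.6 CPM in the MagoHB KD. The MagoHB KD overlapped WT. The log2 fold change of SYVN1 was -0.36 ± 0.07 (adjusted p = 0.000147). DERL2 was at 22.9, 23.0 and 21.2 CPM in WT, 19.5, 18.3 and 17.8 CPM in the S100A16 KD and 21.9, 20.7 and 22.8 CPM in the MagoHB KD, the last overlapping WT. Its log2 fold change was -0.23 ± 0.07 (adjusted p = 0.00859), and its call was lost without MagoHB KD replicate 3 (adjusted p = 0.0522). DERL2 exons overlap those of MIS12 on the other strand, which was also lower (25.9 against 30.2 CPM, log2 -0.23). The part of MIS12 in the DERL2 value was not tested. OS9 (0.01 ± 0.06) and SELK (0.17 ± 0.08), a selenoprotein now named SELENOK, were not called.

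Among the luminal chaperones, 6 of 10 were higher and 2 lower in the S100A16 KD. DNAJB9 (ERdj4, chromosome 7, 108569568 to 108574850), a cochaperone of HSPA5, was at 19, 18.2 and 18.5 CPM in WT, 52.1, 51.9 and 51.5 CPM in the S100A16 KD and 15.3, 19.9 and 18.4 CPM in the MagoHB KD. The S100A16 KD alone stood apart here, since the MagoHB KD overlapped WT. DNAJB9 was 2.90-fold higher in the S100A16 KD than in the MagoHB KD (log2 1.53 ± 0.09, adjusted p = 8.71e-12). Its exons overlap those of PNPLA8 and THAP5 on the other strand, and whether counting used strand is not given. Those genes were also higher (log2 1.01 and 0.70), and their part in the DNAJB9 value was not tested. DNAJC3 (P58IPK), another HSPA5 cochaperone, was at 53.4, 47.8 and 47.3 CPM in WT, 73.6, 70.3 and 73.8 CPM in the S100A16 KD and 32.7, 34.6 and 34.3 CPM in the MagoHB KD. It lay on opposite sides of WT, 2.14-fold apart (log2 1.10 ± 0.07, adjusted p = 1.88e-11).

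The other luminal chaperones called higher differed less. HSP90B1 had a log2 fold change of 0.69 ± 0.06, and the Hsp70 relative HSPA13 of 0.32 ± 0.07. The HSPA5 cofactor MANF stood at 0.29 ± 0.06 and HSPA5 itself at 0.28 ± 0.06 (adjusted p = 0.000543). HSPA5 was at 1378 ± 29 CPM in WT, 1541 ± 23 CPM in the S100A16 KD and 1269.6 ± 111 CPM in the MagoHB KD (SD, n = 3), and 1 MagoHB KD library lay within the WT range. Lower in the S100A16 KD were DNAJB11 (ERdj3), a cochaperone that binds unfolded substrates, and HYOU1, the nucleotide exchange factor of HSPA5. DNAJB11 was at 283, 274 and 267 CPM in WT, 214, 219 and 217 CPM in the S100A16 KD and 276, 286 and 287 CPM in the MagoHB KD. The S100A16 KD libraries lay below all WT libraries, and the MagoHB KD overlapped WT. Between the KDs the log2 fold change was -0.39 ± 0.05 (adjusted p = 2.45e-06). DNAJB11 shares exon sequence with a feature on its own strand, RP11-134F2.8, which was also lower (-0.42) and whose part was not tested. HYOU1 was at 295, 296 and 291 CPM in WT, 272, 264 and 269 CPM in the S100A16 KD and 326, 369 and 337 CPM in the MagoHB KD, below WT in one and above it in the other (log2 -0.36 ± 0.05, adjusted p = 9.63e-06). SDF2L1 (-0.12 ± 0.08) and CRELD2 (0.12 ± 0.06) were not called.

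All 6 lectin chaperones and disulfide isomerases were called higher in the S100A16 KD. The lectins CANX and CALR, which hold newly made glycoproteins, had log2 fold changes of 0.68 ± 0.05 and 0.49 ± 0.06. Of the isomerases, which form and rearrange disulfide bonds, PDIA4 stood at 0.88 ± 0.06, PDIA6 at 0.58 ± 0.07, P4HB at 0.41 ± 0.05 and PDIA3, the partner of the lectins, at 0.18 ± 0.05. PDIA3 lost its call without the filter on low counts (adjusted p = 0.0696). PDIA6 exons overlap those of ATP6V1C2 on the other strand, which was also higher (56.6 against 37.1 CPM, log2 0.61). The part of ATP6V1C2 in the PDIA6 value was not tested.

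Of the 5 sensors and factors, 3 were higher in the S100A16 KD. EIF2AK3 had a log2 fold change of 0.82 ± 0.06 (adjusted p = 1.18e-10), XBP1 of 0.54 ± 0.08 (adjusted p = 4.78e-06) and CREB3L2, a membrane-bound factor related to ATF6, of 0.32 ± 0.08. EIF2AK3 exons overlap those of 2 features on the other strand. Of these, AC104134.2 was also called higher (21.8 against 12.2 CPM, log2 0.83) and AC062029.1 was not called (log2 0.14). Their part in the EIF2AK3 value was not tested. ATF6 (0.01 ± 0.06, adjusted p = 0.892) and ERN1 (0.09 ± 0.18, adjusted p = 0.723) were not called. ERN1 was at 9.04, 14.9 and 9.05 CPM in the MagoHB KD, so 1 library set most of its spread. Without MagoHB KD replicate 2, ERN1 (log2 0.38, adjusted p = 0.0355), CRELD2 (0.20, adjusted p = 0.00555) and SELK (0.25, adjusted p = 0.00477) were called higher. The channel subunit SEC61B (-0.12 ± 0.09) and the COPII coat subunit SEC24D (0.00 ± 0.10) were not called.

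**Figure D2:**
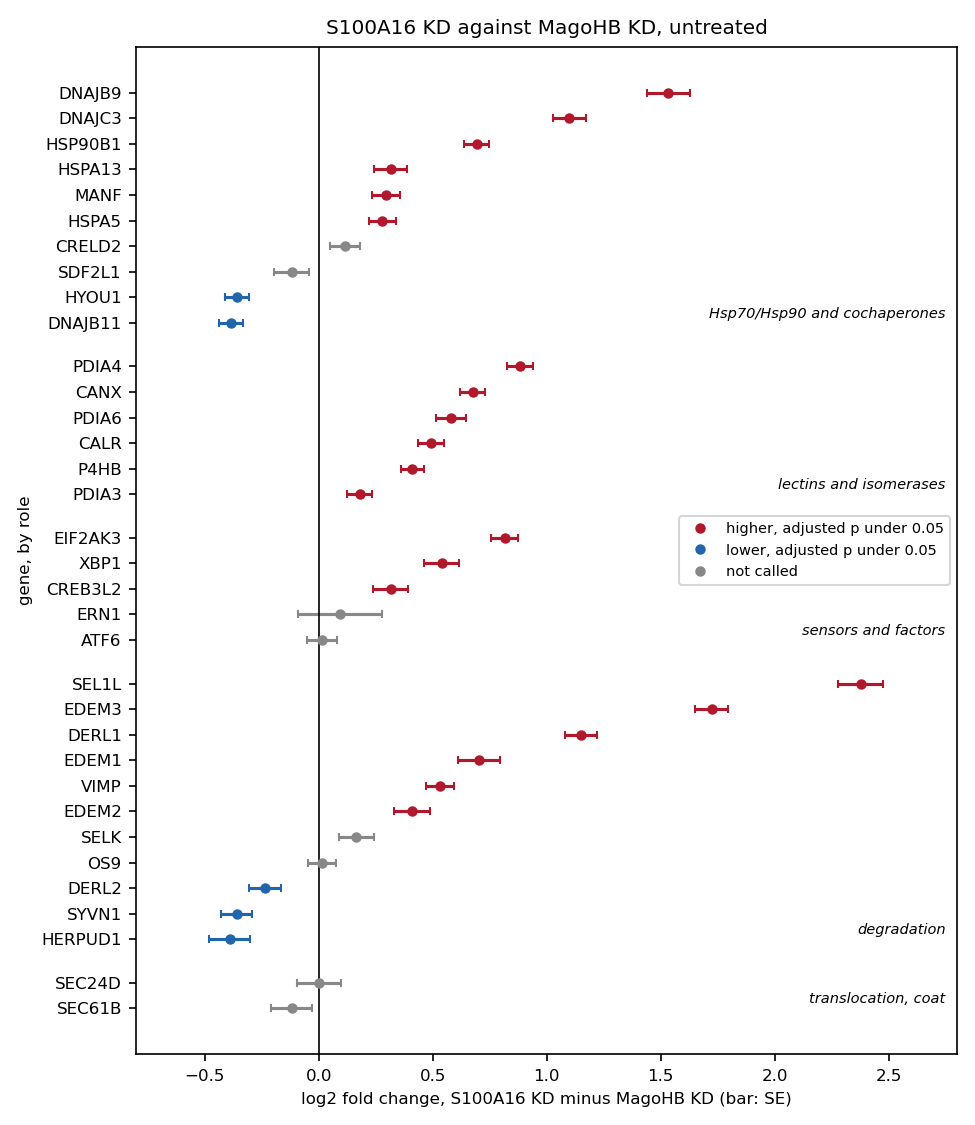
Log2 fold change of each tested ER gene (S100A16 KD minus MagoHB KD, both untreated, n = 3 each; bars are SE) by role, red for called higher, blue for called lower and grey for not called. SEL1L lies farthest right at 2.38, and the 6 lectins and isomerases are all to the right of 0.

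**Figure D3:**
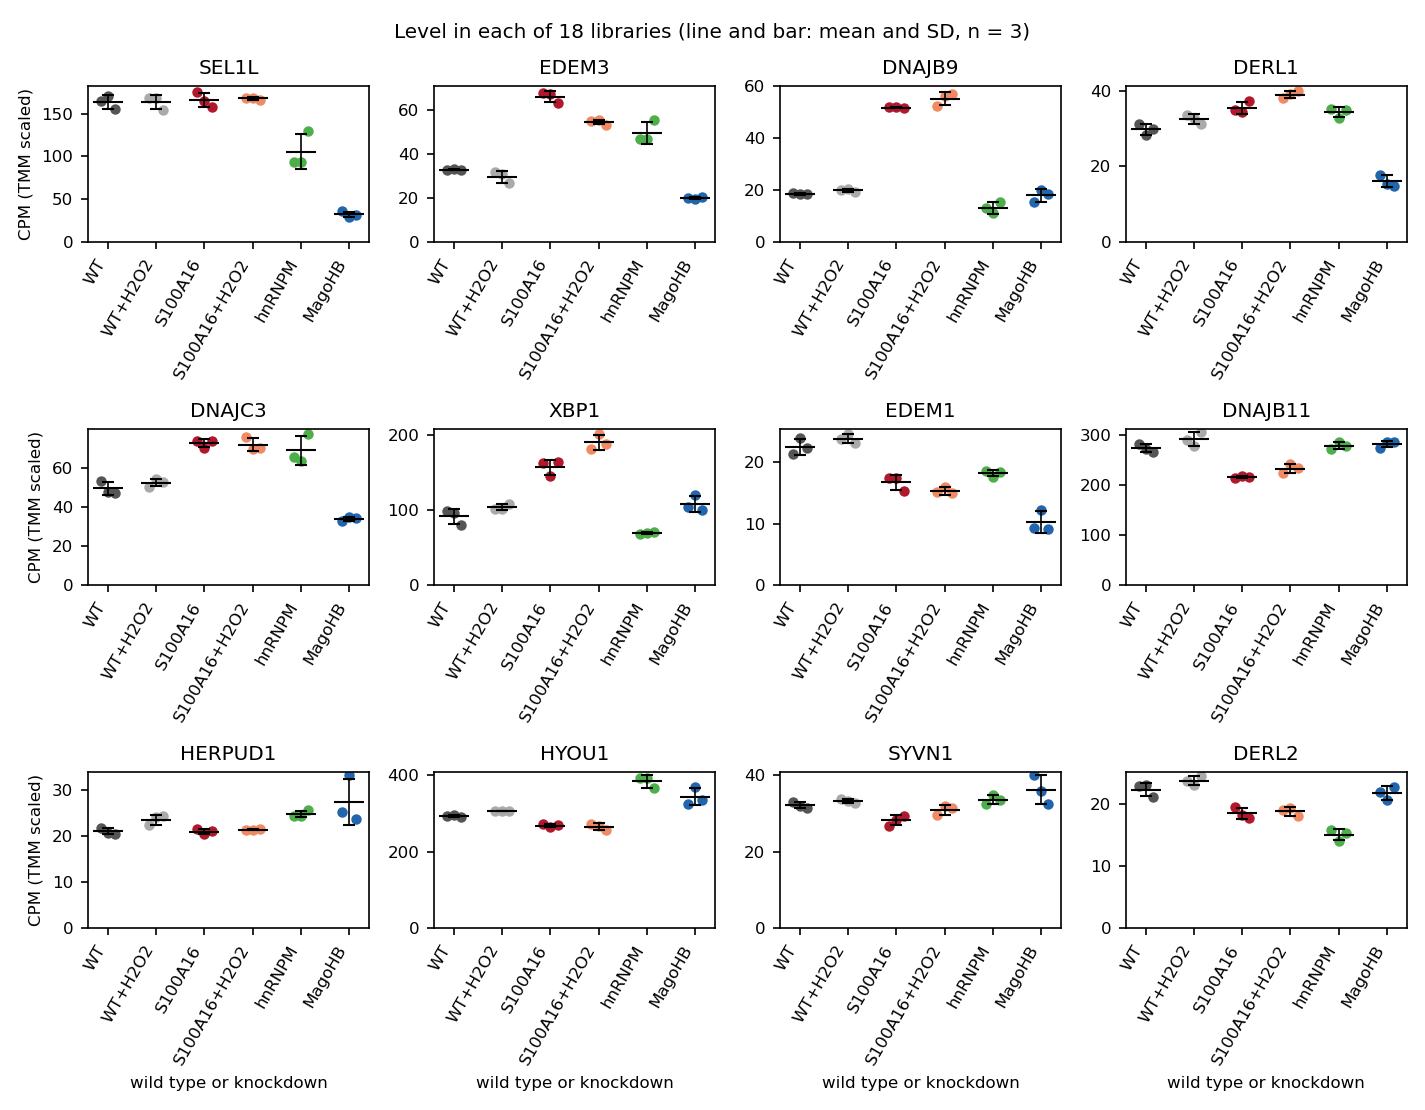
TMM-scaled CPM of 12 ER genes (vertical axes, from 0) in each of 18 libraries by group (horizontal axes); points are libraries, and lines and bars are mean and SD (n = 3). SEL1L drops to 29.4 to 35.5 CPM in the MagoHB KD alone, and DNAJB9 stands above 50 CPM only in the S100A16 KD groups.

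Set beside the promoter sites, the members with an ERSE were not all alike in this comparison. HSP90B1, CANX, XBP1, CALR and HSPA5 were called higher and CRELD2 was not called. Of the members with an ERSE-II, HYOU1 and HERPUD1 were called lower and SDF2L1 was not called. The windows of SEL1L, EDEM3, DNAJB9 and DNAJC3, which are among the 5 members that differed most, held no match. DERL1, the other of the 5, had no window in the table. This was set out after the values were known and carries no test.

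Each KD was also compared with untreated WT, and these comparisons share the WT libraries. In the S100A16 KD 19 members were higher and 8 lower than in WT, against 27.6% and 24.8% of all genes tested, with a median log2 fold change of 0.19 over the members and 0.06 over all genes. DNAJB9 rose most (log2 1.48 ± 0.09, 2.79-fold, adjusted p = 2.79e-11), followed by EDEM3 (1.01 ± 0.07, 2.01-fold). All 5 sensors and factors were called. ERN1 rose by 0.91 ± 0.19, from 5.52 to 6.69 CPM in WT to 10.8 to 12.5 CPM in the KD, XBP1 by 0.78 ± 0.08 and CREB3L2 by 0.78 ± 0.08. DNAJC3 rose by 0.55 ± 0.07 and EIF2AK3 by 0.46 ± 0.06. HSPA5 was 0.16 ± 0.06 higher (adjusted p = 0.0283), a call that was lost in 7 of 14 alternatives, among them leaving out any 1 of the 3 WT libraries or replicate 2 or 3 of the KD.

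Most of the falls in the S100A16 KD depended on scaling. SDF2L1, a partner of DNAJB11, fell by 0.44 on the log2 scale (adjusted p = 6.09e-05). EDEM1 (-0.43), DNAJB11 (-0.34), DERL2 (-0.27), ATF6 (-0.25 ± 0.06, adjusted p = 0.00254) and SEC61B (-0.23) were called lower as well, but with scaling by total counts alone the calls of EDEM1, DNAJB11, DERL2 and ATF6 were lost and SEC61B, HYOU1 and SYVN1 turned to slightly positive values. SEC61B also lost its call without WT replicate 1 or 3 or KD replicate 1 or 3. HYOU1 lost its call without WT replicate 1 or 2 or KD replicate 1 or 2, and SYVN1 without WT replicate 1 or KD replicate 1. Some higher calls were lost as well. CRELD2 lost its call without WT replicate 1, 2 or 3 or KD replicate 3, and OS9 without WT replicate 2 or 3 or KD replicate 2. Scaling by total counts moved the median of all genes from 0.06 to 0.29, raised the share of calls that were higher from 52.7% to 74.0%, and gave 24 members higher and 1 lower.

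In the MagoHB KD 8 members were higher and 14 lower than in WT, against 23.3% and 22.3% of all genes tested, with medians of -0.10 and 0.04. SEL1L fell to 19.5% of WT (log2 -2.35 ± 0.10, adjusted p = 3.28e-13), EDEM1 to 45.6% (-1.13 ± 0.09, adjusted p = 2.32e-09) and DERL1 to 53.8% (-0.89 ± 0.07, adjusted p = 1.02e-09). EDEM3 (-0.72 ± 0.07), PDIA6 (-0.68 ± 0.07) and PDIA4 (-0.63 ± 0.06) followed. Higher were ERN1 (0.82 ± 0.19, and 0.53 without MagoHB KD replicate 2), CREB3L2 (0.47 ± 0.08), HERPUD1 (0.38 ± 0.09, and 0.22 without that replicate), SELK (0.36 ± 0.08), XBP1 (0.24 ± 0.08) and HYOU1 (0.23 ± 0.05). The XBP1 call was lost without WT replicate 3 or MagoHB KD replicate 2, with only the groups compared, and without the 3 libraries that stand apart. SYVN1 and OS9 were called higher too. Both calls were lost in several alternatives, among them leaving out WT replicate 1, 2 or 3, leaving out MagoHB KD replicate 2, and only the groups compared. EIF2AK3 (-0.35 ± 0.06, adjusted p = 4.03e-05) and ATF6 (-0.26 ± 0.06, adjusted p = 0.00205) were called lower, but not with total counts alone, and HSPA5 (-0.12 ± 0.06, adjusted p = 0.113) was not called. Without MagoHB KD replicate 2, however, HSPA5 (-0.19, adjusted p = 0.00376) and CALR (-0.14, adjusted p = 0.0422) were called lower. Both were also called lower without the 3 libraries that stand apart. Total counts alone moved the median of all genes to 0.25 and the share of higher calls from 51.1% to 74.7%, with 15 members higher and 8 lower.

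In the hnRNPM KD 16 members were higher and 9 lower than in WT, against 25.4% and 23.8% of all genes tested, with medians of 0.16 and 0.02. CREB3L2 rose by 0.69 ± 0.08 (adjusted p = 1.58e-07) and EDEM3 by 0.60 ± 0.07 (adjusted p = 3.74e-07). DNAJC3 (0.48 ± 0.07), HYOU1 (0.39 ± 0.05), PDIA6 (0.38 ± 0.07) and HSP90B1 (0.37 ± 0.06) were higher too. SEL1L fell to 64.5% of WT (-0.63 ± 0.10, adjusted p = 1.45e-05). DERL2 (-0.56 ± 0.07), HSPA13 (-0.55 ± 0.07), DNAJB9 (-0.50 ± 0.10), XBP1 (-0.40 ± 0.08) and EDEM1 (-0.31 ± 0.09, lost with total counts alone) were lower. XBP1 was at 68.8, 69.0 and 70.5 CPM here, below the 79.8 to 99.1 CPM of WT and the 146 to 164 CPM of the S100A16 KD. HSPA5 (0.22 ± 0.06, adjusted p = 0.00411) and EIF2AK3 (0.22 ± 0.06) were called higher, and ATF6 (0.12 ± 0.06) and ERN1 (0.35 ± 0.19, adjusted p = 0.15) were not called. ERN1 was at 6.65, 6.73 and 10.5 CPM in the hnRNPM KD; its log2 fold change was 0.09 without replicate 3, and without the filter on low counts it was called higher (0.34, adjusted p = 0.0212). Total counts alone moved the median of all genes to 0.13 and the share of higher calls from 51.6% to 63.1%, with 20 members higher and 5 lower.

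After 2 h of H2O2 no ER gene passed the threshold in either line. In WT 0 of 34 members were called by edgeR, against 0.223% of all genes tested. An unadjusted p under 0.05 was found for 3 of the 34 (HSPA5, HSPA13 and XBP1, named after their values were seen). It was found for 1477 of all 22382 genes tested. HSPA5 was at 1495 to 1615 CPM with H2O2, above the 1349 to 1407 CPM of untreated WT, a log2 fold change of 0.17 ± 0.06 (adjusted p = 0.521). In the S100A16 KD 0 members were called, against 0.0134% of all genes tested. There 3 members had an unadjusted p under 0.05, beside 1515 of all 22382 genes tested. The 3 members were EDEM3 (-0.28 ± 0.07, adjusted p = 0.344), XBP1 (0.27 ± 0.08, adjusted p = 0.455) and DNAJB11 (0.11 ± 0.05). HSPA5 stood at 0.04 ± 0.06. DESeq2 called 0 members in WT and 1 in the KD (EDEM3, adjusted p = 0.0436). Fitted on the groups compared alone, HSPA5 was called in WT (0.17, adjusted p = 0.00147) and XBP1 (0.26, adjusted p = 0.000484) and EDEM3 (-0.29, adjusted p = 8.49e-05) in the KD. The same 3 genes were called without the 3 libraries that stand apart.

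The S100A16 KD differed from WT in 24 members with H2O2, against 27 without it, in libraries that are not shared but come from the same lines. Under H2O2 18 members were higher and 6 lower, against 27.9% and 24.7% of all genes tested, with medians of 0.23 and 0.06. All 24 were among the 27 called without H2O2 and in the same direction (88.9% of the 27). Of all genes tested, 83.7% of the 11713 called without H2O2 were called the same way under it. DNAJB9 rose by 1.48 ± 0.09 under H2O2, ERN1 by 0.89 ± 0.19, EDEM3 by 0.88 ± 0.07, XBP1 by 0.87 ± 0.08, CREB3L2 by 0.53 ± 0.08 and the isomerase P4HB by 0.50 ± 0.05. EDEM1 (-0.64 ± 0.09), SDF2L1 (-0.60 ± 0.08), DERL2 (-0.34 ± 0.07), DNAJB11 (-0.32 ± 0.05), HYOU1 (-0.21 ± 0.05) and ATF6 (-0.17 ± 0.06) were lower. With total counts alone the calls of DERL2 and HYOU1 were lost and ATF6 turned to 0.01, and ATF6 also lost its call without WT H2O2 replicate 2 or 3 or KD H2O2 replicate 1 or 2. EIF2AK3 was called higher (0.38 ± 0.06) and HSPA5 was not called (0.03 ± 0.06, adjusted p = 0.682). Total counts alone moved the median of all genes from 0.06 to 0.24 and the share of higher calls from 53.1% to 70.0%, with 21 members higher and 3 lower.

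The test of the difference itself, the interaction of the S100A16 KD with H2O2, called 0 members by edgeR, against 0.0938% of all genes tested. CREB3L2 alone among the members had an unadjusted p under 0.05 (-0.25 ± 0.11, adjusted p = 0.947), beside 1134 of all 22382 genes tested. DESeq2 called 0 members. The values of a member without and with H2O2 differed by at most 0.249 on the log2 scale. This does not show that the effects were equal.

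**Figure D4:**
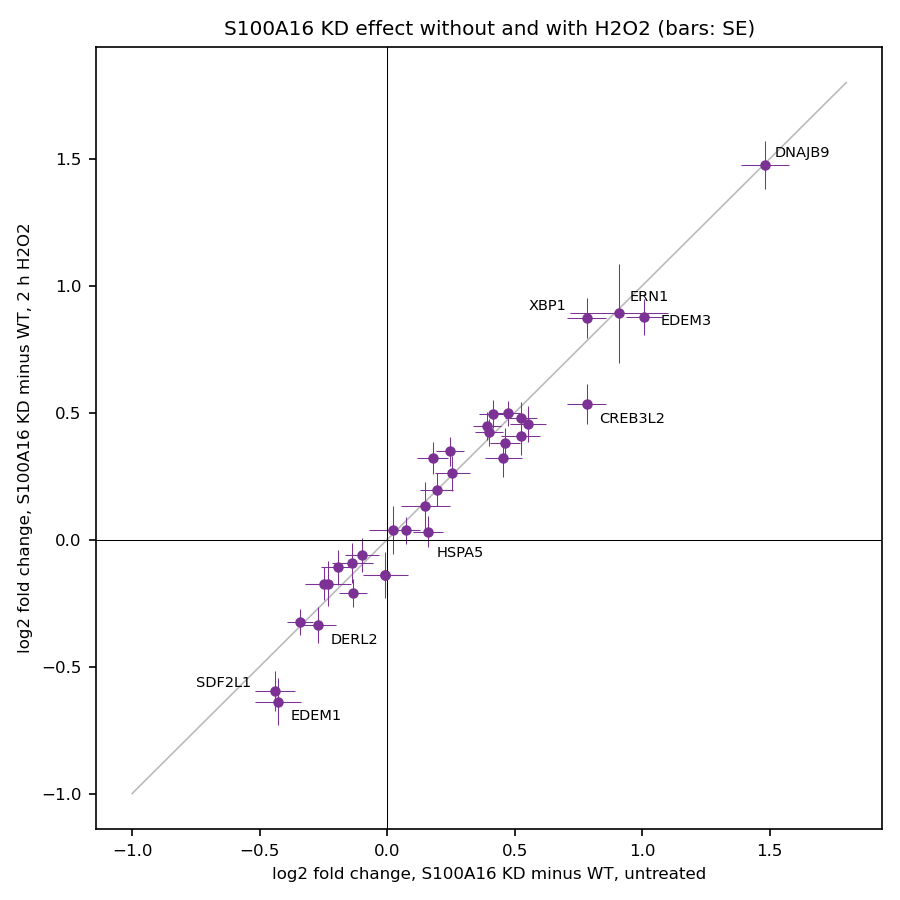
Log2 fold change of each of the 34 tested ER genes in the S100A16 KD against WT, untreated (horizontal axis) and with 2 h of H2O2 (vertical axis), bars SE, with the line of equal values. DNAJB9 lies at 1.48 on both axes, and all points are within 0.249 of the line in the vertical direction.

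Other genes of the same pathways, from 4 lists, were compared between the S100A16 and MagoHB KDs, again beside 23.2% of all genes called higher and 21.7% lower. Of 32 other ER folding genes 11 were higher and 7 lower in the S100A16 KD (median log2 fold change 0.05). The membrane oxidoreductase TMX1 was at 89.0 CPM against 20.1 CPM (2.15 ± 0.09, adjusted p = 5.64e-14), and the lectin malectin (MLEC) was also higher (1.74 ± 0.08). The retrieval receptor KDELR1 (-0.99 ± 0.08) and the prolyl isomerase FKBP14 (-0.68 ± 0.10) were lower. Of 35 other ERAD genes 15 were higher and 8 lower (median 0.14). TRAM1, a protein of the translocation channel (1.37 ± 0.11), and the lectin ERLEC1 (1.07 ± 0.06) were higher, and the ligase RNF185 (-1.67 ± 0.12) and the p97 cofactor NPLOC4 (-1.24 ± 0.05) were lower.

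Of 36 genes of the translocon, signal peptidase and COPII coat 14 were higher and 9 lower (median 0.04). MCFD2, a cargo receptor subunit (0.79 ± 0.08), and the signal recognition particle receptor subunit SRPRB (0.55 ± 0.07) were higher, while its partner SRPRA (-1.94 ± 0.06, adjusted p = 4.28e-16) and the signal peptidase SEC11A (-0.67 ± 0.06) were lower. Of 29 genes of the PERK and ATF4 arm and other stress regulators 8 were higher and 6 lower (median 0.06). The eIF2α phosphatase subunits moved apart: PPP1R15B was higher (0.99 ± 0.07, adjusted p = 2.02e-10) and PPP1R15A lower (-0.99 ± 0.18, adjusted p = 0.000472). The factor CEBPG was higher (0.59 ± 0.06), and the pseudokinase TRIB3 was called lower (-0.61 ± 0.23, adjusted p = 0.0389) with libraries that overlapped.

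Counts of 17 of the 35 members are uncertain to some degree because their exons overlap those of another feature, and the strand setting of the counting is not given. The other 18, among them SEL1L, EDEM3, DNAJC3, XBP1 and HSPA5, had no such overlap. SYVN1 exons overlap the more abundant ribosomal protein gene FAU on the same strand (158 CPM in the S100A16 KD and 243 CPM in the MagoHB KD, log2 -0.62). The part of FAU in the SYVN1 value was not tested.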

How the data were processed

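For each of 18 libraries the authors deposited a table of counts per gene, in whole numbers, and one of RPKM. The submitters' processing notes name HISAT2 2.2.1, StringTie 2.1.4, SAMtools 1.15.1, FastQC 0.11.9 and DESeq2 1.32.0, on GRCh38. The sources used here do not name the counting program, its annotation or its strand setting. Of the counts from 1 to 19 in a library, 18.6% to 22.0% were odd, so a fit to halved counts was an alternative. The RPKM values, scaled by the authors to exon length and total counts, were used only for levels between genes.

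Groups were taken from the labels. The robust quasi-likelihood test of edgeR 4.0.16, run in R 4.3.3 on the counts, used TMM scaling, filterByExpr (22382 genes kept) and 1 mean per group over 18 libraries, with Benjamini-Hochberg adjustment over all genes and calls under 0.05. Each adjusted p is from it where no other tool is named, and SE is that of the log2 fold change. The test was also run on simulated data in which few genes were changed. That setting does not probe the KD comparisons, in which many genes were called. Alternatives were DESeq2 1.42.0, other scalings and filters, fewer groups, a replicate block, halved counts, and libraries left out. Promoter windows came from RefSeq.

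The members, gene lists and most tests were chosen with earlier results of these data known. Every called member was named between the S100A16 and MagoHB KDs, with values per library for the 5 largest in each direction among those of at least 5 CPM. Other comparisons name up to 6 called members in each direction by absolute log2 fold change, plus HSPA5, XBP1, ATF6, ERN1 and EIF2AK3 in KD comparisons and HSPA5 under H2O2. Some further members are named where their calls depended on the settings. Each other list gives up to 2 called genes in each direction.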

Additional observations from a re-analysis of the deposited data

How the results depend on the processing

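Between the S100A16 and MagoHB KDs, 468 of 476 alternative values of the members kept a call in the same direction or stayed uncalled, 2 lost the call, 6 gained one and 0 reversed. Over all 8 comparisons this held for 3862 of 4012 values, with 91 calls lost, 51 gained and 8 reversed. The 8 reversals are sign changes of values called under either setting. Another 154 values, 18 of them between the KDs, changed sign with no call under either setting and are among those that stayed uncalled. All 8 reversals of a called value came with scaling by total counts alone. Against WT in the S100A16 KD these were PDIA6 (0.14), HYOU1 (0.10), MANF (0.23), SYVN1 (0.0452) and SEC61B (0.0054). In the MagoHB KD they were DERL2 (0.17) and VIMP (0.20), and in the S100A16 KD under H2O2 ATF6 (0.0107). The cause was not tested, but the same scaling moved the median of all genes upward by 0.24, 0.21 and 0.18 in those comparisons.

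H2O2 calls depended most on the settings. For H2O2 in WT, 50 genes became 95 with DESeq2, 85 without the filter, 555 with only the groups compared and 417 without the 3 libraries that stand apart, and members went from 0 to 1 in the last pair of settings. In the S100A16 KD, 3 genes became 60, 25, 801 and 364 in the same order, and members 1 with DESeq2, 2 with only the groups compared and 2 without the 3 libraries. For the interaction, 21 genes became 34, 45, 256 and 190. With 1 library left out, genes ranged from 40 to 44 in WT, from 3 to 7 in the KD (7 without untreated KD replicate 3) and from 13 to 17 for the interaction (13 without untreated WT replicate 3 or KD H2O2 replicate 1). The cause was not tested.

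With a replicate block, members called numbered 26 between the KDs, 27 in the S100A16 KD, 21 in the MagoHB KD, 25 in the hnRNPM KD and 24 in the S100A16 KD under H2O2, against 26, 27, 22, 25 and 24 without it. Over all genes the calls numbered 9865, 11553, 9986, 10864 and 11653 in the same order. Without the block they numbered 10029, 11713, 10193, 10999 and 11759. The deviations of same-numbered libraries correlated from -0.02 to 0.11, and in 0 of 7 comparisons did every library correlate best with its own number, so the numbers were not taken as pairs.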
